A study of Gallus gallus with 2 samples.

Results

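Domain borders were mapped along chicken chromosome 2 in limb bud cells from chromatin contacts that fell outside the captured locus. A border was a position where contacts between the chromatin before it and the chromatin after it dropped to a local minimum. Positions were taken from all 40-kb bins of the balanced chromosome 2 matrices that carried a value in both libraries, outside the window from 31000 to 35000 kb that surrounds HoxA. This left 3512 of 3740 bins and 3573 edges between neighbouring bins at which contacts could be scored. The forelimb matrix gave 191 borders (5.35% of the edges) and the hindlimb matrix 196 (5.49%), and 170 of them were found in both.

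Interphase chromosomes fold into topologically associating domains (TADs), stretches of chromatin whose sequences meet each other more often than they meet their neighbours. In vertebrates most borders between such domains are bound by CTCF and the cohesin complex, and loops extruded by cohesin tend to halt there. Borders limit which enhancers reach which promoters, and in limb buds this matters for the Hox clusters, which sit next to large regulatory domains. CTCF binding on chromosome 2 was not analysed here.

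The study captured the HoxD locus on chromosome 7 of White Leghorn chick embryos at Hamburger-Hamilton stage HH20, wild type in both groups. One library came from whole forelimb (FL) buds and the other from whole hindlimb (HL) buds, each pooled from several embryos, so every value averages over the cell types of a bud. Capture Hi-C (CHi-C) cross-links chromatin, ligates DNA ends that lie together, and enriches the ligated fragments of a chosen locus with probes. Chromosome 2 carried no probes, so its read pairs are untargeted background. The FL matrix held 2513654 read pairs and the HL matrix 2836869, of which 1352957 and 1559149 joined positions up to 1000 kb apart. With 1 library per group there is no replicate, and no difference between FL and HL could be tested. The 4 sequencing lanes of each library were therefore scored apart. They resample the same ligated DNA, so their spread measures sequencing depth and not variation between embryos.

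Every edge was given an insulation score. The balanced contacts between the 10 bins before the edge and the 10 bins after it, a 400-kb square, were averaged, and the score is the log2 of this mean over its median along the chromosome. A score below 0 means fewer contacts across the edge than at the typical edge, and -1 means 50% of them. The squares held a median of 1201 read pairs in FL (range 439 to 2528) and 1354 in HL (range 450 to 2989). Squares at borders were thinner, with medians of 911 and 1000.5 pairs. Over all edges the scores ran from -1.09 to 1.03 in FL and from -1.24 to 0.96 in HL.

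A border had to score lowest among the scored edges within 200 kb on either side, with at least 3 of them on each side. Its strength, the rise from the border to the lower of its flanking peaks, had to reach 0.2 on the log2 scale. The FL matrix had 211 such minima and the HL matrix 216, and 20 in each stayed under the strength limit. Just under the limit, the 5 FL minima closest to it had strengths of 0.19 and the HL ones 0.18 to 0.20. Just above it, strengths ran from 0.20 to 0.22 in both libraries. Few of the borders hung on the limit, since the median strength was 0.71 in FL (quartiles 0.47 and 0.96) and 0.73 in HL (quartiles 0.51 and 0.98). A strength of 1 or more, a doubling of contact at least, was found at 39 FL and 43 HL borders.

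Most borders also scored below the chromosome median. About as many edges score below 0 as above it, by the definition of the score. Borders are picked as local minima, so low scores were favoured by the rule. The score was below 0 at 186 of 191 FL borders and at 194 of 196 HL borders, with medians of -0.46 and -0.48. The exceptions were minima inside stretches of high contact. The border at 520 kb, near the start of the chromosome, scored 0.21 in FL and 0.12 in HL, with strengths of 0.61 and 0.57. An edge needs a full square before it to be scored, so the flank before this border was cut short.

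Contacts across the 170 shared borders were compared with the chromosome mean at the same distance. In FL, bin pairs 80 to 200 kb apart reached a median of 69.7% of this expected value, pairs 240 to 400 kb apart 71.8%, and pairs 440 to 760 kb apart 72.4%. In HL the medians were 69.6%, 70.0% and 72.9%. Contacts across borders were thus lower by a similar share at short and at long range, in both libraries. These pairs are the ones that defined the borders, so the values describe the depth of the minima. The score stayed below the midpoint between border and flank over a median of 280 kb in FL and 240 kb in HL. Each score averages a 400-kb square, so this width depends in part on the square.

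**Figure D1:**
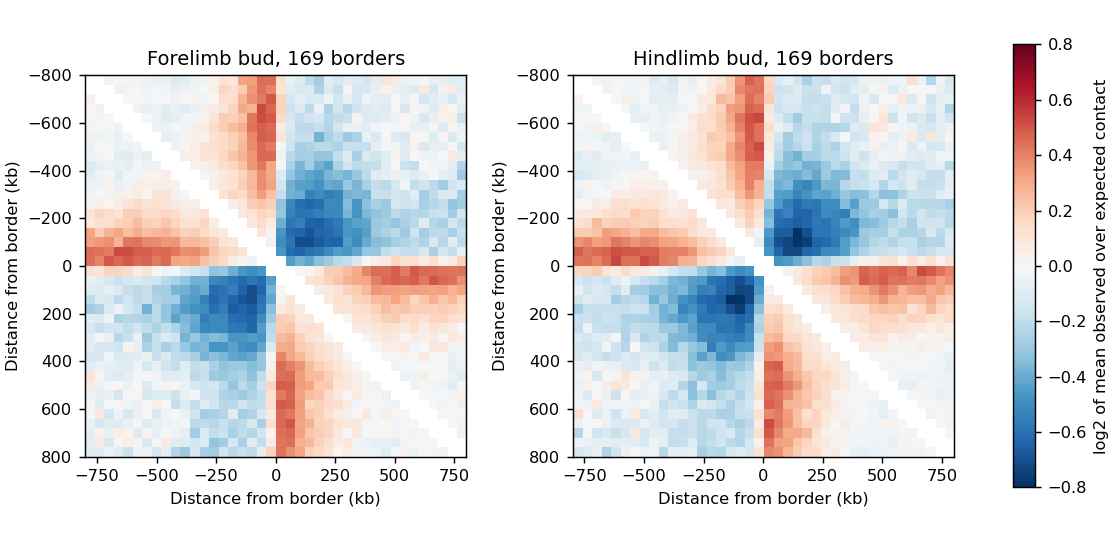
Mean contact around 169 shared borders in FL (left) and HL (right). Both axes give distance from the border in kb, and colour gives the log2 of observed over expected contact. The quadrants that cross the border are blue, and the bins next to the border are red towards their own side.

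The mean map also showed what the bins at a border contacted instead. The 2 bins just before a border met bins 440 to 720 kb further back at 137.8% of the expected level in FL and 138.5% in HL. The 2 bins just after a border met bins on their own side, over the same distances, at 136.7% and 135.1%. These stripes of raised contact ran along the inner side of the border in both directions and were of like height in both libraries. Balancing gives every bin the same total, so a bin that loses contacts across a border must hold more elsewhere, and the part of this in the stripes was not tested.

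The distances between borders were similar in both libraries. Between neighbouring borders with all edges scored, the median distance was 720 kb in FL (quartiles 560 and 880 kb, 187 distances) and 680 kb in HL (quartiles 550 and 880 kb, 192 distances). An interval for the median from the order of the distances ran from 680 to 760 kb in FL and from 640 to 720 kb in HL, so the intervals overlapped. The shortest distances were 280 kb in FL and 240 kb in HL, the latter being the least the rule allows, and the longest was 1680 kb in both. Distances over 1000 kb were found 26 times in FL and 27 times in HL. The spacing depends on the size of the square: with a 200-kb square the median was 480 kb in both libraries.

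**Figure D2:**
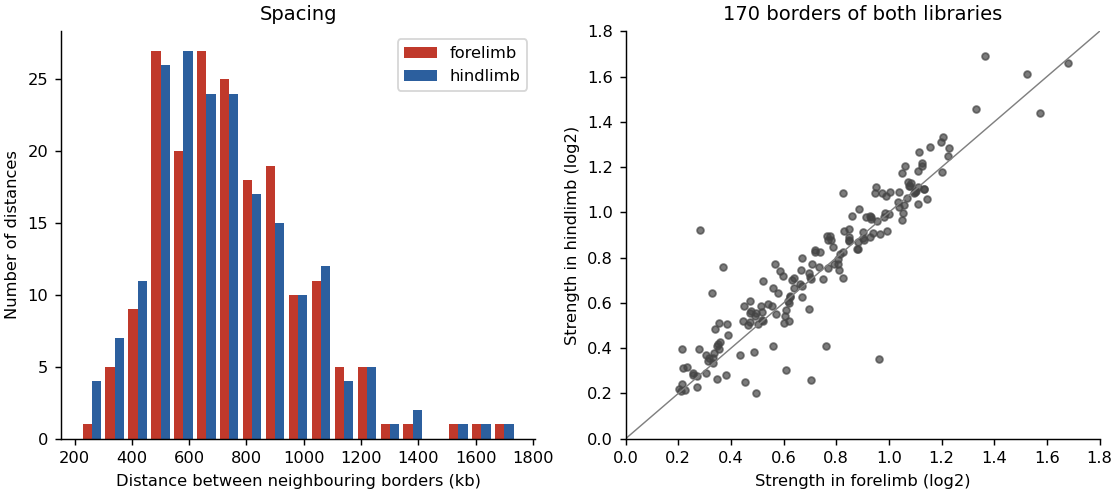
Left, number of distances between neighbouring borders (y axis) by distance in kb (x axis) in FL and HL. Right, strength of the 170 shared borders in HL (y axis) against FL (x axis), both in log2 units, with the line of equality. The distances centre near 700 kb, and most points follow the line.

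Borders lay all along the scored chromosome, at densities that differed between windows. Per 10 Mb of scored edges there were 13.4 borders in FL and 13.7 in HL. In windows of 10 Mb the density ran from 10.0 to 16.0 in FL and from 11.04 to 17.0 in HL. In both libraries the densest window lay at 110 to 120 Mb, and its borders were also among the weakest, with a median strength of 0.56 in FL and 0.51 in HL. The sparsest FL window, at 70 to 80 Mb, held 10 borders in FL and 12 in HL.

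The positions in FL and HL were nearly the same. The 170 shared borders, those within 40 kb of each other, made up 89.0% of the FL list and 86.7% of the HL list. Of all edges, 16.4% lay within 40 kb of an HL border and 16.0% within 40 kb of an FL border. On the 40-kb grid 137 of the shared borders fell on the same edge, and the other 33 lay 1 edge apart, 15 of them higher and 18 lower in HL. When the same 400-kb square was moved in steps of 10 kb, 54 of the 170 minima coincided, 122 lay within 10 kb and 155 within 20 kb of each other, with a largest distance of 100 kb. Most of the shared borders thus agreed to well under the width of a 40-kb bin. They had been matched within 40 kb beforehand, which favoured close agreement, and borders of 1 library only were left out.

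The whole profile of scores also matched. Across the 3573 edges, which share a genome and have overlapping squares, the scores correlated with Pearson r = 0.98 and Spearman rho = 0.98. The differences (HL minus FL) had an SD of 0.06, and the largest was 0.24 in size.

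Lanes of a single library gave the agreement between 2 samplings of the same ligated DNA. The FL lanes 1 and 2 shared 168 borders with the FL lanes 3 and 4, and the HL lanes likewise shared 168. At similar depth (1207798 and 1305856 pairs in the FL lane sets, 1375051 and 1461818 in the HL ones), the 4 comparisons of an FL with an HL lane set gave 161, 164, 167 and 167 shared borders. The SD of the score differences was 0.08 within FL, within HL and in each comparison of FL with HL. Lane sets of different limbs thus shared slightly fewer borders than lane sets of the same limb, and their scores lay apart by nearly the same SD.

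**Figure D3:**
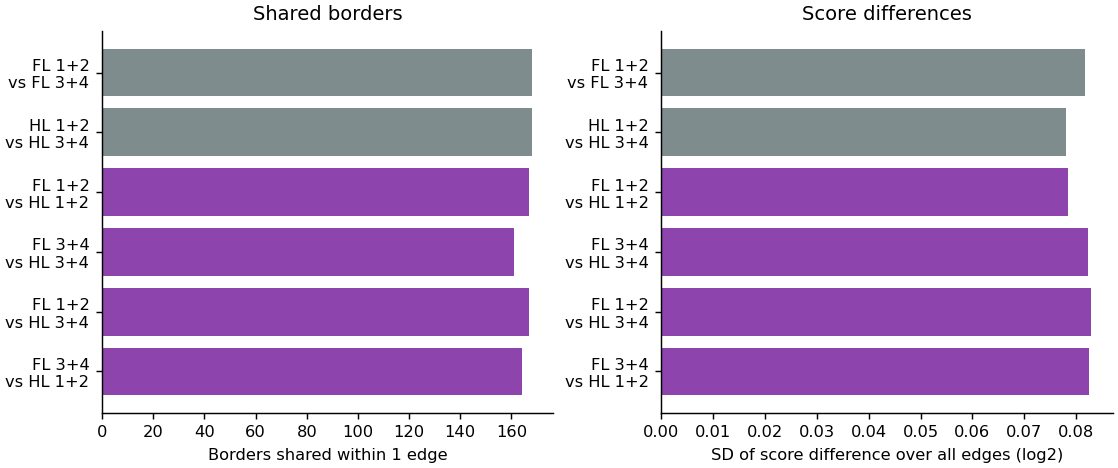
Comparisons between pairs of lane sets, within a library (grey) or between FL and HL (purple). The bars give the number of borders shared within 1 edge (left) and the SD of the score difference over all edges in log2 units (right). The within-library bars stand at 168 borders, and the purple bars at 161 to 167.

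Single lanes found 193 to 196 borders in FL and 199 to 204 in HL. Of the 170 shared borders, 104 were called in all 8 lanes and 153 in at least 6. Borders called in every lane were the stronger ones, with a median strength of 0.82 against 0.57 for the 66 others. In any single lane 16.2% to 17.1% of all edges lay within 40 kb of a border.

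Strength was likewise similar in both libraries at most shared borders. Across the 170 shared borders it correlated with Pearson r = 0.93 and Spearman rho = 0.92. The strength was higher in HL at 111 borders and higher in FL at 59, with a median difference of 0.03 (quartiles -0.02 and 0.08). At single borders the difference (HL minus FL) reached -0.61 and 0.64, nearly as large as the median strength itself. The score at the border was lower in HL at 121 of 170, with a median difference of -0.03 (range -0.19 to 0.12). The median score at shared borders ran from -0.48 to -0.45 over the FL lanes and from -0.52 to -0.49 over the HL lanes, without overlap. The shift was small and not steady: between the lanes 3 and 4 of each library the median difference was -0.0089, with 95 of the borders lower in HL. Depth also differed, every HL lane but the last holding more pairs than any FL lane, and the part of depth in this shift was not tested.

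The strongest shared border by mean strength lay at 960 kb. Contacts fell to a score of -1.09 in FL and -1.07 in HL, and its strengths of 1.68 and 1.66 rest on 515 and 565 read pairs. Single lanes scored -1.25 to -1.02 in FL and -1.22 to -0.92 in HL, so the lanes overlapped. Contacts 440 to 760 kb apart reached 41.1% of the expected level in FL and 39.8% in HL.

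The border at 11480 kb scored -1.04 in both libraries, with strengths of 1.52 in FL and 1.61 in HL from 548 and 612 pairs. Its HL lanes spread widely, from -1.35 to -0.83, around FL lanes from -1.10 to -0.95. At all distances, 45.5% to 50.8% of the expected contacts crossed it. When scored from observed over expected contacts, the lowest score within 40 kb of this border was not a local minimum in at least 1 library. The border also opened a domain from 11480001 to 12320000 with a marked corner, described below.

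The border at 88120 kb held the lowest score of the HL matrix, -1.24 against -1.06 in FL. Its strength was 1.36 in FL and 1.69 in HL, on 546 and 556 pairs. All HL lanes (-1.30 to -1.15) scored below all FL lanes (-1.14 to -0.96). Contacts 440 to 760 kb apart reached 45.1% of the expected level in FL and 34.5% in HL, the latter being the lowest of any shared border in that band. The log2 ratio of its raw counts after scaling was -0.15 with a 95% counting interval from -0.32 to 0.03, which includes 0.

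The border at 57920 kb leaned the other way, with scores of -1.05 in FL and -0.92 in HL. The strengths were 1.57 and 1.44, on 456 and 536 pairs. Lane scores of -1.10 to -0.96 in FL and -1.15 to -0.83 in HL overlapped. With lanes 1 and 2 alone the difference was 0.25, and with lanes 3 and 4 it was -0.00.

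The border at 78520 kb scored -1.03 in FL and -1.11 in HL, with strengths of 1.33 and 1.45 on 676 and 681 pairs. The lanes of both libraries overlapped here, with FL from -1.21 to -0.91 and HL from -1.20 to -1.03. It was among the sharpest borders beyond 200 kb, with 47.1% of the expected contacts in FL and 44.4% in HL at 240 to 400 kb.

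The next 5 borders had strengths between 1.16 and 1.33. The border at 26320 kb scored -0.81 in FL and -0.92 in HL, that at 130080 kb (130040 kb in FL) -0.78 and -0.79, and that at 99760 kb -0.67 and -0.78. All 3 lay under 0 in every lane, with FL and HL lanes overlapping.

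The other 2 of the 10 lay at 59640 kb and 50080 kb, and their strengths depended on the processing. At 59640 kb the scores were -0.70 in FL and -0.77 in HL, with 79.8% of the square carrying values, and the mean strength of 1.26 dropped to 0.61 with all valid pairs and to 0.64 in either lane set. At 50080 kb the scores were -0.64 and -0.72, and the mean strength of 1.25 was 0.55 with a 200-kb square. With adjacent pairs kept or with observed over expected contacts, the lowest score within 40 kb of 59640 kb was not a local minimum in at least 1 library. Single lanes called the border at 59640 kb in 5 of 8 cases and that at 50080 kb in 7 of 8.

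**Figure D4:**
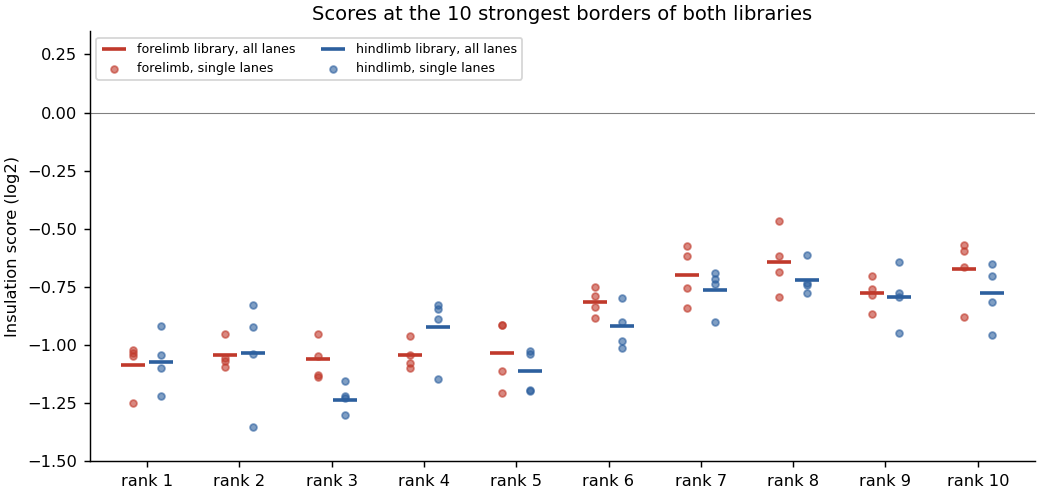
Insulation score in log2 units (y axis) at the 10 strongest shared borders, in order of mean strength (x axis). Horizontal bars mark all lanes of FL (red) or HL (blue) and points single lanes. All points lie below 0, and red and blue points overlap everywhere except at rank 3, the border at 88120 kb.

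Score differences of 0.2 or more between the libraries were rare. Of all 3573 edges 7 (0.196%) passed this limit, and of the 217 borders of either library only the border at 120680 kb did. None of the 170 shared borders passed it. At the lower depth of the lane sets, 60 edges passed it within FL, 45 within HL, and 51 to 75 between FL and HL. The counts between libraries reached higher than those within a library, and the ranges overlapped.

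The 7 edges fell into 5 places. HL was higher at 28200 kb (0.37 against 0.16), at 58040 kb (-0.58 against -0.82) and around 79080 kb (0.54 against 0.33), and lower at 76600 kb (-0.55 against -0.35) and at 120680 kb (-0.76 against -0.53). The place at 58040 kb lies on the flank of the border at 57920 kb, 120 kb away. Those at 28200 kb and 79080 kb lie 360 and 320 kb from the nearest border, inside domains.

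Single lanes gave a second view. All HL lanes scored above all FL lanes at 75 edges (2.1%) and below all FL lanes at 60 edges (1.68%). Of the 217 borders, 1 was of the first kind and 8 were of the second, and of the 170 shared borders 1 and 4. Lower HL lanes were thus seen at 3.69% of all borders and 2.35% of the shared ones. The 217 include borders called in 1 library only, which were picked by the scores of that library. Their share is therefore no fair comparison with that of all edges. The counting interval of the scaled pair counts left out 0 at 395 edges (11.1%) and at 24 of the 217 borders, which is the same share. Of the 170 shared borders, 15 (8.82%) had such an interval. Squares at borders held fewer pairs, which widens the interval. These shares therefore cannot show whether borders differed more or less than edges in general.

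The border with the largest difference, at 120680 kb, was called in HL only. It scored -0.53 in FL and -0.76 in HL, on 463 and 450 pairs, and only 55.6% of its square carried values. The scaled log2 ratio of the counts was -0.21 with a counting interval from -0.40 to -0.02. FL lanes from -0.65 to -0.36 overlapped with HL lanes from -0.88 to -0.53, and the difference was -0.41 with lanes 1 and 2 but -0.04 with lanes 3 and 4. In FL the nearest border lay 120 kb away with a strength of 0.79.

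Of the shared borders, the border at 63480 kb differed most, with scores of -0.65 in FL and -0.84 in HL. It rests on 982 and 994 pairs, and the scaled log2 ratio was -0.16 with a counting interval from -0.28 to -0.03. Its lanes overlapped, from -0.73 to -0.58 in FL and from -1.005 to -0.69 in HL. The difference lay at short range, where 60.3% of the expected contacts crossed at 80 to 200 kb in FL and 44.2% in HL. With a 200-kb square the difference was accordingly -0.42, and with a 480-kb square it was -0.13.

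The border at 68840 kb was called in HL only. It scored -0.09 in FL and -0.27 in HL, and all FL lanes (-0.22 to 0.00) lay above all HL lanes (-0.27 to -0.25). The nearest FL minimum lay 240 kb away. Here the difference was -0.25 with lanes 1 and 2, -0.07 with lanes 3 and 4, and -0.06 with either of the other square sizes.

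At 76560 kb, again a border of HL only, the score was -0.40 in FL and -0.57 in HL. FL had a minimum at the same edge whose strength of 0.17 missed the limit. The lanes overlapped, and the difference ran from -0.01 with lanes 1 and 2 to -0.33 with lanes 3 and 4.

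Among the borders, the largest differences with the higher score in HL were smaller in size than those with the lower score. The border at 18360 kb, called in FL only, scored -0.51 in FL and -0.35 in HL, with a counting interval of the scaled ratio from -0.02 to 0.26. HL had a border of strength 0.96 at a distance of 240 kb from it. At 107320 kb the scores were -0.21 and -0.07, with an interval from 0.02 to 0.25, and HL had a minimum 40 kb away with a strength of 0.13. The FL border at 82400 kb scored -0.26 against -0.13, and the shared border at 14000 kb -0.57 against -0.45. Their intervals, from -0.05 to 0.20 and from -0.01 to 0.24, include 0. The border at 82400 kb was called in only 1 of 8 lanes, and HL had a border of strength 0.53 at a distance of 160 kb. Lanes of FL and HL overlapped at all 4 of these borders.

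Borders called in 1 library only were 21 in FL and 26 in HL. They were weaker than the shared ones, with median strengths of 0.51 and 0.52, against 0.73 in FL and 0.76 in HL for shared borders. Counterparts in the other library were counted within 200 kb. With borders a median of 720 kb apart in FL and 680 kb in HL, many edges lie that close to one. The share of all edges was not counted, so the counts are a description only. Of the 21 FL borders, 14 had an HL border 80 to 200 kb away and 5 an HL minimum under the strength limit within 200 kb. Of the 26 HL borders, 14 and 9 had such an FL counterpart. The other library scored below 0 at 18 of the 21 and at 21 of the 26. Over all edges about as many score below 0 as above it, since the score is relative to the median.

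The strongest of them formed pairs. At 92240 kb FL had a border of strength 1.28, and at 92120 kb HL had one of strength 1.26. FL scored -0.94 at the HL position and -0.96 at its own, and HL scored -0.88 at the FL position and -0.93 at its own. The minimum was thus broad in both libraries, and its lowest edge moved by 120 kb. The FL border at 89400 kb (strength 0.99) and the HL border at 89240 kb (strength 0.97) were a second such pair, with all 4 scores between -0.61 and -0.55. The third FL border by strength, at 16120 kb (0.97), had an HL border of 0.80 at a distance of 120 kb.

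None of the 47 borders of a single library was called in all 8 lanes. The FL border at 36040 kb alone was called in all 4 lanes of its own library and in no lane of the other. It was weak, with a strength of 0.23 and scores of -0.17 in FL and -0.12 in HL, and its FL lanes (-0.24 to -0.12) lay within the range of the HL lanes (-0.24 to 0.11). Only 69.7% of its square carried values.

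The shared borders enclosed 169 domains, of which 110 had values in all bins and edges. Their median length was 700 kb (quartiles 530 and 870 kb). Contacts inside a domain reached a median of 120.6% of the expected level in FL and 120.3% in HL, and were over 100% in 105 of the 110 domains in both libraries. Domains were cut where crossing contacts were low, and the expected level includes those crossing pairs. Values over 100% thus follow in part from the border rule and are a description only. The log2 ratio of HL to FL ran only from -0.09 to 0.14 over the domains, so no domain was denser in 1 limb by more than the 0.2 used for scores.

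Of these 110 domains, the longest spanned positions 46120001 to 48120000, 2000 kb, followed by 92880001 to 94520000 (1640 kb) and 67840001 to 69440000 (1600 kb). Contacts inside them were close to the chromosome mean, at 100.5% to 102.8% in both libraries. Each held 2 borders that were called in 1 library only, an FL border and an HL border more than 40 kb apart. Each library alone therefore split these spans, for example at 46920 kb in FL and at 47200 kb in HL. Longer spans lay among the domains with missing bins or edges, such as 119120001 to 121480000 (2360 kb), with 123.1% in FL and 126.0% in HL. That span held 4 borders that were called in 1 library only. The shortest of the 110 domains, at 85920001 to 86200000 (280 kb), 15040001 to 15360000 (320 kb) and 39760001 to 40080000 (320 kb), were denser, with 126.4% to 138.7% in FL and 129.2% to 152.3% in HL. The domain from 102120001 to 102440000 tied with the last of these at 320 kb, with 139.8% in FL and 145.9% in HL.

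Contacts between the 2 ends of a domain, its corner, stood above the chromosome mean at the same distance in most domains of both libraries. A loop between the 2 borders can leave a raised corner on a contact map, but loops were not tested here. The chromosome mean at these distances also includes pairs that cross borders. In 97 domains of 280 to 1040 kb, the 2 first and the 2 last bins met each other at a median of 160.4% of the expected level in FL and 172.4% in HL. Bin pairs at the same distance but shifted along the chromosome, so that they crossed a border, reached medians of 76.4% and 72.1%. Such crossing pairs are the ones that the border rule selected for low contact, so their level is a description and no check of the corners. The corner was higher in HL than in FL in 62 of 97 domains, with a median difference of 8.41 percentage points. Lane medians of 154.3% to 168.0% in FL and 162.4% to 175.8% in HL overlapped, and a corner held a median of only 59 and 70 read pairs.

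The highest mean corner belonged to the domain from 11480001 to 12320000, with 351.8% of the expected level in FL (81 pairs) and 468.0% in HL (108 pairs). The domain from 60880001 to 61520000 reached 376.0% in FL and 332.0% in HL, on 149 and 161 pairs. The domain from 99120001 to 99760000 reached 313.9% and 335.9%, and the domain from 50080001 to 50800000 reached 317.4% and 317.8%. The fifth, from 2400001 to 3280000, reached 270.7% and 303.0%, on 83 and 106 pairs.

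The valid-pair lists held features of the bins that the border rule did not use directly. The shares and mate counts include the chromosome 2 pairs that make up the matrices, so they are not independent of the border calls. The share of mates whose partner lay on another chromosome had a median of 24.5% in the 369 FL bins at borders and 25.5% in the 3109 other bins, with quartiles of 23.1% and 25.9% against 24.0% and 27.0%. In HL the medians were 24.5% in 379 border bins and 25.7% in 3099 others. In FL 65.6% of the border bins, and in HL 64.4%, lay below the chromosome median of this share. Border bins thus had slightly fewer partners on other chromosomes, by about 1 percentage point, within a wide spread of bins. Partners on the captured chromosome 7 were left out of this share.

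**Figure D5:**
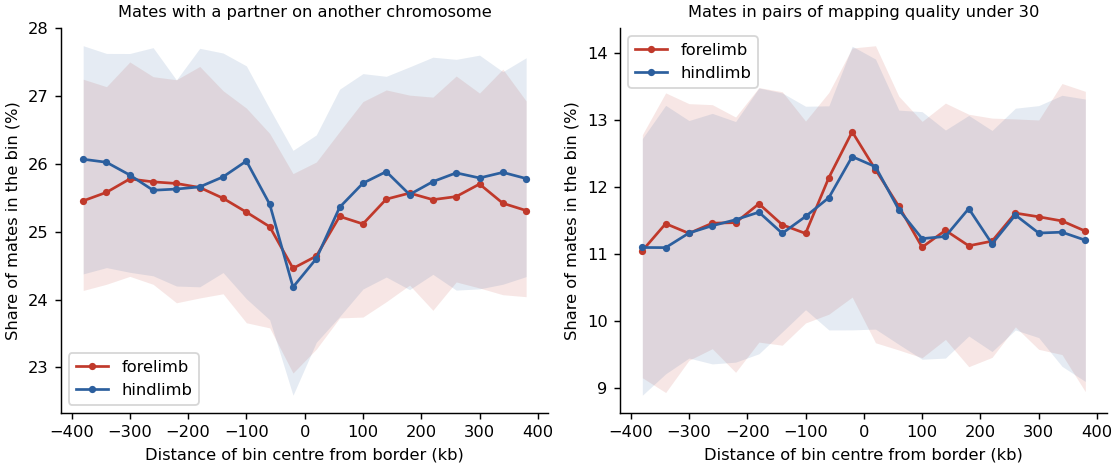
Share of mates with a partner on another chromosome (left) and of mates in pairs of mapping quality under 30 (right), in percent (y axes), by distance of the bin centre from a border in kb (x axes). Lines are medians over FL or HL borders and bands are quartiles. Left, the medians dip at the border from about 25.5% to 24.5%. Right, they rise there from about 11.2% to 12.5%.

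Border bins also mapped less uniquely. The share of mates in pairs with a mapping quality under 30, which the authors left out of the matrices, had a median of 12.6% at FL borders against 11.2% elsewhere, and of 12.5% against 11.2% in HL. Its part in the border scores was not tested site by site. With those pairs put back the FL matrix gave 191 borders and the HL matrix 193, of which 168 were shared. At the strongest quartile of borders (47 in FL, 49 in HL) the share was 11.3% in both libraries, close to that of other bins.

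Coverage did not mark the borders. Border bins held a median of 1981 mates in FL against 1964 elsewhere, and 2184 against 2209 in HL. They held 83 against 85 restriction fragments in FL and 84 against 85 in HL. The share of mates in pairs under 20 kb was 5.42% against 5.51% in FL and 5.98% against 6.1% in HL. The interchromosomal share also did not step from one level to another at borders: the change between the 5 bins before and the 5 bins after had a median of 0.80 points at FL borders and 0.81 at edges more than 80 kb from a border, and of 0.71 and 0.83 in HL.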

How the data were processed

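CHi-C was analysed in 1 FL and 1 HL library (HH20). Libraries were grouped by their labelled tissue. Per the methods of the study, read pairs were mapped to galGal5 and filtered with HiCUP. The deposited list of valid pairs gives fragment positions and mapping quality scores. The deposited raw matrix holds counts of read pairs per 40-kb bin pair of chromosome 2, and the balanced matrix the same contacts as a signal after balancing by the authors with cooler, which evens out coverage between bins. Counting here showed that it holds the pairs of mapping quality 30 or more.

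Scores used balanced values and 99 bin pairs per square (the adjacent pair left out), with at least 50% measured. Lanes and all valid pairs were rebuilt and balanced here with the deposited masks; a rebuilt matrix differed from the deposited one by a median of 0.0014%. Ratios of counts have exact conditional binomial intervals at 95%, for counting error only. PCR copies without molecular identifiers are not independent molecules. Borders were planted and recovered in simulated matrices (numpy 2.4.6, scipy 1.17.1).

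Borders named were the 10 strongest shared, the 5 with the most positive and 5 with the most negative difference (at least 400 kb apart), the 3 strongest of each library alone, and the 3 longest and 3 shortest domains. The border at 36040 kb, that at 520 kb and the highest corners were chosen after their values were seen. Borders, rules and named features were chosen with earlier results of these data known. Genes were not named, because no galGal5 annotation was used here. The alternatives were other squares, limits, pair filters, lane sets, observed over expected and raw counts. The matrices of chromosome 7 were not used here.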

Additional observations from a re-analysis of the deposited data

How the results depend on the processing

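The number of borders stayed within 1.5 times of the values reported under all alternatives, but the median spacing followed the rule. It was 480 kb in both libraries with a 200-kb square, 800 kb in FL and 760 kb in HL with a 480-kb square, 800 kb in both with observed over expected contacts and in both when a border had to be lowest over 10 edges on either side, and 880 and 840 kb with a strength limit of 0.4. The share of borders found in both libraries was 94.7% of FL borders with a 480-kb square, 83.0% of FL and 80.9% of HL borders with lanes 3 and 4, and 71.7% and 69.9% when the same edge was required. The number of edges with scores apart by 0.2 was 127 with a 200-kb square, 4 with a 480-kb square, 17 with raw counts, 18 with observed over expected contacts, 2 with all valid pairs, 51 with lanes 1 and 2, and 67 with lanes 3 and 4. It was 330 at a limit of 0.1 and 0 at a limit of 0.4. The median score difference at shared borders was -0.0089 with lanes 3 and 4. The causes of these shifts were not tested. The rank-sum filter of TopDom gave 193 FL and 197 HL borders, 176 of them shared. Score differences of the borders named for their differences kept their sign in 98 of 99 cases. The exception was the border at 57920 kb with lanes 3 and 4. These borders were picked for large differences in the same read pairs, and the alternatives reuse those pairs. A kept sign was therefore favoured in advance, and the count is a description only. No score at 120680 kb was available when 80% of a square had to be measured, and no strength at 59640 kb under that setting. Strength was also undefined at 59640 kb with adjacent pairs kept, and at 59640 kb and 11480 kb with observed over expected contacts. In these cases the lowest score within 40 kb was not a local minimum in at least 1 library, so the border was lost at that place. All valid pairs, 10-kb steps and single lanes were added after seeing the data. No paired analysis was possible because each group holds 1 library. Depth limits single borders: with 439 to 2989 pairs in a square, counting error alone gave the border at 88120 kb an interval from -0.32 to 0.03.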
